A study of Homo sapiens with 4 samples.

Results

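The 41 genes described here carry out homologous recombination, repair DNA crosslinks through the Fanconi anaemia pathway, or relay replication stress to the cell cycle. They were chosen by name. The array annotation used here gave 36 of the 41 a probe set of their own, among 19775 genes in all, and each gene was read by the probe set that was brightest on average. ATRIP shares its probe sets with another gene symbol, and BRCA2, FANCA, FANCD2 and RBBP8 had no named probe set here, so these 5 genes were not analysed here. Of the 36, 34 read above a floor of 62.6 intensity units on at least 1 array and 28 did so on all 4. FANCB, a core complex subunit, read 36.6 in siYT against 13.8 in siNC and 44.0 in siYT+8Br-cAMP against 41.6 in siNC+8Br-cAMP, and XRCC3, which acts in recombination, 49.4 in siYT against 47.4 in siNC and 28.9 in siYT+8Br-cAMP against 2.68 in siNC+8Br-cAMP. Both genes were below the floor on every array and were not compared.

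The data come from KGN cells, an established human line from a granulosa tumour of the ovary, hybridised to 4 Affymetrix HG-U133 Plus 2.0 arrays. siYT cells received siRNAs against YAP and TAZ (5 nM each), and siNC cells a control siRNA (10 nM). The medium was replaced at 48 h, and the siYT+8Br-cAMP and siNC+8Br-cAMP cells then had 8Br-cAMP, a form of cyclic AMP that enters cells, at 0.5 mM for 24 h. Each of the 4 groups was 1 array of 1 line, so a difference carries no replicate error. Differences are on the log2 scale after the floor was applied, and 2-fold means a log2 difference of 1.

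Homologous recombination copies an intact sister chromatid to mend a broken chromosome or a collapsed replication fork, by pairing the resected end with the matching sequence. The Fanconi core complex marks the FANCD2 and FANCI pair with ubiquitin at a crosslink and hands the lesion to the same recombination machinery. ATR and its effector kinase CHEK1 slow the cycle while forks are under stress, and ATM and CHEK2 do so after breaks. Many of these genes are transcribed mainly in cells that are preparing for or passing through DNA replication, with E2F factors among their regulators.

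E2F factors bind sites close to the start of transcription, so the promoters are shown here with the knockdown results that follow in view. RefSeq promoter windows (GRCh38.p14, 250 bases before to 50 after each start) were found for 30 of the 34 genes. An E2F-type word, any of TTTCCCGC, TTTGGCGC, TTTCGCGC and TTTGCCGC on either strand, lay in a window of 9 of the 30, against 715 of 11587 genes compared that had a window (6.17%) and 3.31% of all 35116 windows. Printed next are 4 genes that were lower by 2-fold or more under knockdown both times (MND1, CLSPN, EXO1 and TIPIN) and 1 that holds the word but was not (MSH6). Each run covers 150 bases before to 30 after the start, 5′ to 3′ on the gene's strand, and capitals mark the E2F-type word and the CCAAT word (read as ATTGG on the opposite strand).
MND1 (chr4:153344499-153344678, plus strand): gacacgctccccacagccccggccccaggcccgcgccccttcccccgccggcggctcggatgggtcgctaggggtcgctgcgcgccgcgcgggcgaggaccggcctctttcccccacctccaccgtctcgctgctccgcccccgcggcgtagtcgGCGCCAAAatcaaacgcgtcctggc
CLSPN (chr1:35769949-35770128, minus strand): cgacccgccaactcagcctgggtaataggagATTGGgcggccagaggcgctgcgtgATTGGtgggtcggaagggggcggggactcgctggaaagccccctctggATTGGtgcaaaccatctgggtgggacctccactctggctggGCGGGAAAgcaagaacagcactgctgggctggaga
EXO1 (chr1:241848054-241848233, plus strand): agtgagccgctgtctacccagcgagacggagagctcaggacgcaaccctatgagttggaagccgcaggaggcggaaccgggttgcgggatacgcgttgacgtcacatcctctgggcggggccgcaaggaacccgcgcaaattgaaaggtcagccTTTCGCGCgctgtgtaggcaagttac
TIPIN (chr15:66356656-66356835, minus strand): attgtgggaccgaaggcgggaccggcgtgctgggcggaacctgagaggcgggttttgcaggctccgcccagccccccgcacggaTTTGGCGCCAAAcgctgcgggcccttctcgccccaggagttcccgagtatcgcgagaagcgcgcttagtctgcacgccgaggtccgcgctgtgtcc
MSH6 (chr2:47782995-47783174, plus strand): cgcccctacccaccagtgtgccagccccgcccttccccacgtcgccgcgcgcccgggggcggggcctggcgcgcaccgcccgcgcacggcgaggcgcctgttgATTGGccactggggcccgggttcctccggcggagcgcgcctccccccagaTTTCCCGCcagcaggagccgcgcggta

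In TIPIN the word TTTGGCGC lies on both strands and overlaps itself as a palindrome, at positions -66 to -59 and -62 to -55 from the start. In CLSPN the word TTTCCCGC, on the opposite strand, spans the start itself, from -5 to 3, downstream of 3 CCAAT words. Any E2F-type word was present in 4 of the 11 genes with a window that were lower at 2-fold in both knockdown comparisons. It was present in 5 of the other 19, namely XRCC2, FANCC, RMI1, MSH6 and TOPBP1. CCAAT, the NF-Y word, was held by 16 of the 30 (53.3%, against 42.7% of genes compared). TTTGAA, a form of the cell cycle homology region, was held by 3 (10.0% against 14.4%), and GGAATG, the core of a TEAD site, by 5 (16.7% against 15.4%). A match of letters is a description of the window, and genes with several windows had more chances to hold a word.

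The siRNA targets were lower on the knockdown arrays: YAP1 was 3.80-fold lower without 8Br-cAMP and 3.38-fold lower with it, and WWTR1, the gene for TAZ, 5.22-fold and 6.11-fold. The array medians lay between 56.9 and 66.3 units. How far probe sets for the same gene disagreed gives a yardstick that leaves out variation between cultures: its SD was 0.39 for siYT against siNC and 0.37 for 8Br-cAMP with control siRNA, but 0.54 and 0.53 where siYT+8Br-cAMP was involved. That array also had a higher ACTB 3' to 5' ratio, 1.35 against 1.07 to 1.14 on the other 3. Of 9 granulosa markers measured, 7 were above the floor on all arrays, while FSHR and NR5A1 were below it on all 4. Of markers for other lineages, EPCAM, CDH1, CDH5, VWF and LYZ stayed below the floor on all arrays, and PTPRC, CD3E and KRT5 passed it on 1 array each. The endothelial markers PECAM1 and KDR were above it on 4 and 3 arrays, KDR at 261 in siYT against 287 in siNC and 27.9 in siYT+8Br-cAMP against 247 in siNC+8Br-cAMP, and their part in the results was not tested. The summed level of 4 fibroblast or theca markers was 7949 in siYT against 1029 in siNC and 5268 in siYT+8Br-cAMP against 1315 in siNC+8Br-cAMP, with CYP17A1 below the floor throughout, and its part in the results was not tested.

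After YAP/TAZ knockdown, 12 of the 34 genes passed 2-fold downward both without and with 8Br-cAMP, and 0 passed it upward both times. The 12 comprised BRCA1, BARD1, RAD51AP1, MND1, FANCI, FANCM, BLM, EXO1, CHEK1, CLSPN, TIMELESS and TIPIN, which span recombination, the Fanconi pair, resection and the ATR branch of the checkpoint. Over all 14427 genes compared, 2.81% did so downward and 2.38% upward. Without 8Br-cAMP 15 of the 34 were lower at 2-fold (6.05% of all genes) and 0 higher (7.30%), and with it 13 were lower (9.48%) and XRCC2 alone was higher (6.74%). The median log2 difference over the 34 was -0.81 without and -0.64 with 8Br-cAMP, against 0.00 over all genes in each. A gene entered the comparison if any array was above the floor, so genes that are high on the control arrays alone also entered: 4 of the 12 (FANCM, BLM, EXO1 and CLSPN) were at the floor on at least 1 knockdown array. Among the 28 that no array put at the floor, 8 were lower at 2-fold in both, against 341 of 10795 such genes (3.16%). In RNA from whole cultures, fewer cells in the replicating part of the cycle and less RNA per cell cannot be told apart.

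**Figure D1:**
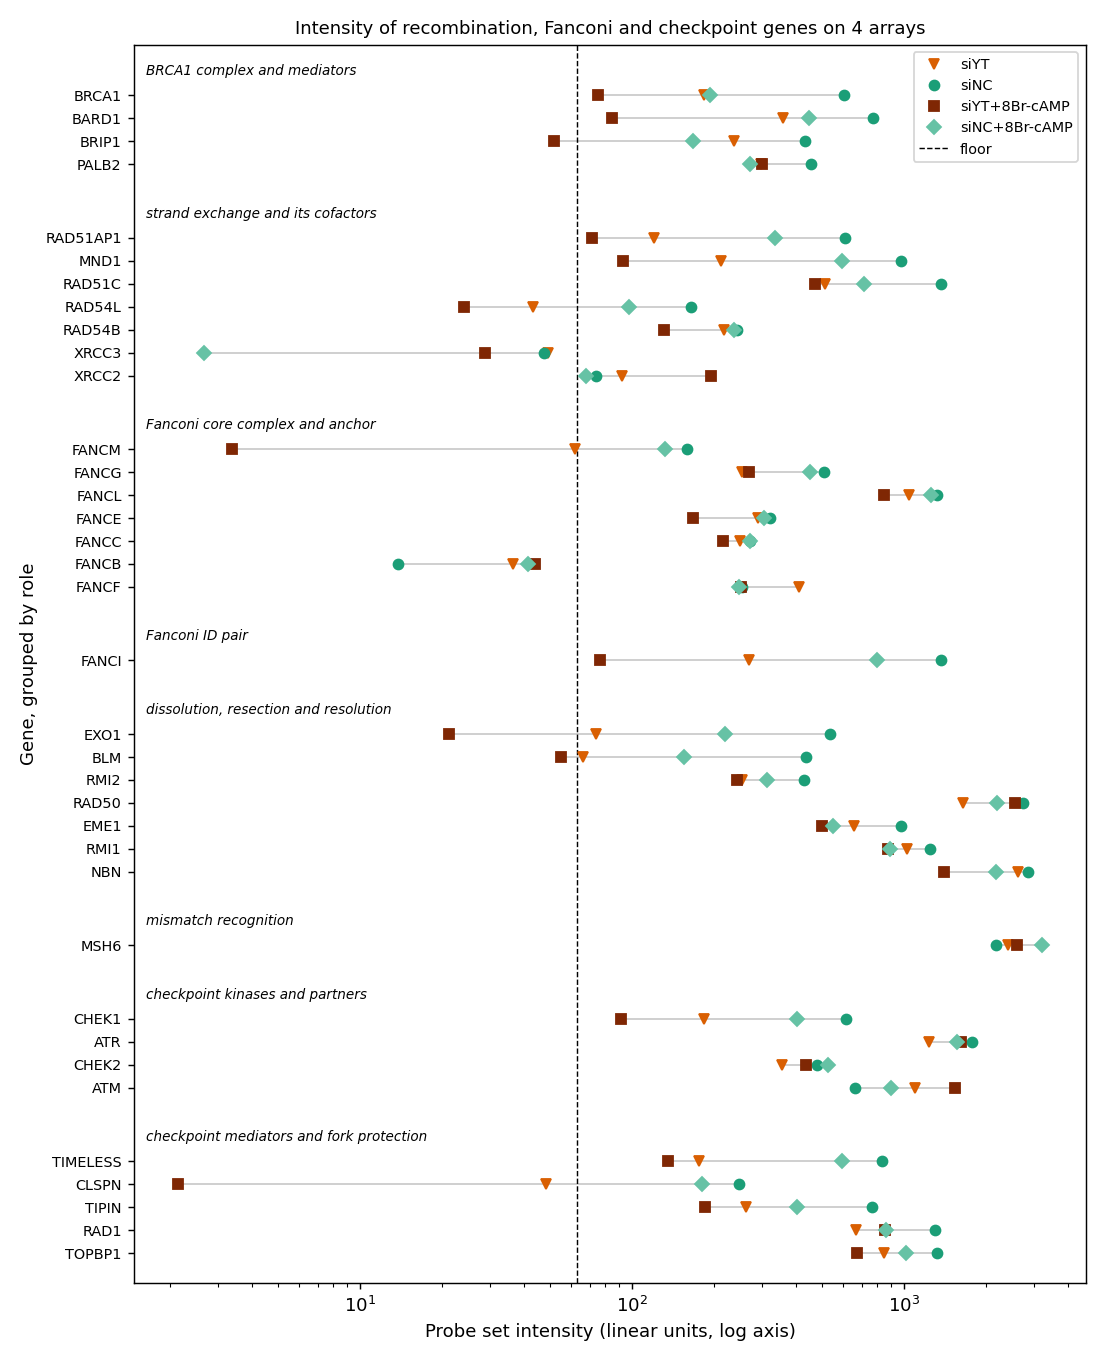
Probe set intensity (log axis) of the 36 measured genes on the siYT, siNC, siYT+8Br-cAMP and siNC+8Br-cAMP arrays, grouped by role, 1 point per array; the dashed line is the floor of 62.6. The siNC array was the highest for 28 of the 34 genes above the floor and the siYT+8Br-cAMP array the lowest for 21.

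The siNC array read highest for 28 of the 34 genes, where 24.2% of all genes did so, and the siYT+8Br-cAMP array read lowest for 21, where 27.7% did so. Both held for 20 genes (13.7% of all genes). Any lower value in both knockdown comparisons was seen for 27 of the 34 (28.5% of all genes), and FANCF, XRCC2 and ATM were higher in both (28.5%). An additive limma fit of knockdown and 8Br-cAMP over all 14427 genes, with 1 residual degree of freedom and the difference of differences taken as error, called 7 of the 34 lower at a Benjamini-Hochberg level of 0.05 (1.12% of all genes) and 0 higher (0.658%). The 7 were RAD51AP1, MND1, FANCI, EXO1, CHEK1, CLSPN and TIMELESS, with limma adjusted p-values between 0.0372 and 0.0467. CLSPN (0.0467) was below the floor on both knockdown arrays and EXO1 on 1, so the floor sets part of their fitted effect and the CLSPN call supports nothing beyond its bound. At an unadjusted p of 0.05 the same limma fit gave 16 genes below 0 (9.99% of all genes) and 2 above, XRCC2 and ATM (9.83%).

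Among the BRCA1 complex and its mediators, BRCA1 and BARD1 were lower at 2-fold in both comparisons. BRCA1, the ubiquitin ligase that directs break ends into recombination, read 185 in siYT against 604 in siNC and 74.9 in siYT+8Br-cAMP against 194 in siNC+8Br-cAMP. It was 3.26-fold lower without 8Br-cAMP and 2.59-fold lower with it, and the additive limma fit gave -1.54 ± 0.27 (SE) with an adjusted p of 0.0603. The BRCA1 call with 8Br-cAMP was lost under log2(value + 50) (-0.97) and under the mean of all probe sets (-0.94). Its other probe set was below the floor on both knockdown arrays. The differences of -1.39 and -0.50 from that probe set are therefore bounds, and the floor limits the mean as well. BARD1, its obligate partner, read 359 in siYT against 772 in siNC and 84.6 in siYT+8Br-cAMP against 448 in siNC+8Br-cAMP. Both partners were therefore highest in siNC and lowest with knockdown and 8Br-cAMP together. By the probe set used here BARD1 differed more under 8Br-cAMP (2.15-fold lower without it and 5.30-fold lower with it). The next brightest BARD1 probe set, above the floor on all arrays, did not show this, at -1.09 without and -1.05 with 8Br-cAMP. The faintest gave -0.13 and -0.65, the latter a bound, since it was below the floor in siYT+8Br-cAMP. No contrast between BRCA1 and BARD1 under 8Br-cAMP can therefore be read. BRIP1, the helicase that binds BRCA1, read 238 in siYT against 432 in siNC, a log2 difference of -0.86, and was at the floor in siYT+8Br-cAMP against 167 in siNC+8Br-cAMP, at least 2.67-fold lower. PALB2, the bridge between BRCA1 and BRCA2, differed by -0.61 without and 0.14 with 8Br-cAMP.

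Genes of strand exchange and its cofactors went several ways. RAD51AP1, which stimulates strand invasion, read 121 in siYT against 606 in siNC and 71.4 in siYT+8Br-cAMP against 337 in siNC+8Br-cAMP. MND1, known from meiosis as a member of a pair that helps capture a homologous duplex, read 212 in siYT against 976 in siNC and 92.6 in siYT+8Br-cAMP against 591 in siNC+8Br-cAMP. Each knockdown array was below each control array for both genes, by 5.02-fold and 4.72-fold for RAD51AP1 and by 4.59-fold and 6.39-fold for MND1, without and with 8Br-cAMP. The limma effects were -2.28 ± 0.27 and -2.44 ± 0.28 (SE), each with an adjusted p of 0.0372.

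RAD51C, which also acts with the Fanconi pathway, read 512 in siYT against 1373 in siNC (2.68-fold lower) and 472 in siYT+8Br-cAMP against 712 in siNC+8Br-cAMP (1.51-fold lower), so only the comparison without 8Br-cAMP passed 2-fold. The other RAD51C probe set, above the floor on all arrays, gave -0.62 without and -0.43 with 8Br-cAMP, short of 2-fold in both. RAD54L, a motor that remodels chromatin during strand exchange, was below the floor on both knockdown arrays, against 165 in siNC and 97.6 in siNC+8Br-cAMP, which makes it at least 2.63-fold and 1.56-fold lower. Its relative RAD54B was close to level without 8Br-cAMP (218 in siYT, 243 in siNC) and lower with it (132 in siYT+8Br-cAMP, 238 in siNC+8Br-cAMP), differences of -0.16 and -0.85. XRCC2, a partner of RAD51C in recombination, was the exception in direction: 92.3 in siYT against 73.7 in siNC and 196 in siYT+8Br-cAMP against 67.9 in siNC+8Br-cAMP, differences of 0.33 and 1.53. The XRCC2 reading comes from a single probe set with a suffix that marks cross-hybridisation, and 3 of its 4 values lie less than 1.5-fold above the floor.

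**Figure D2:**
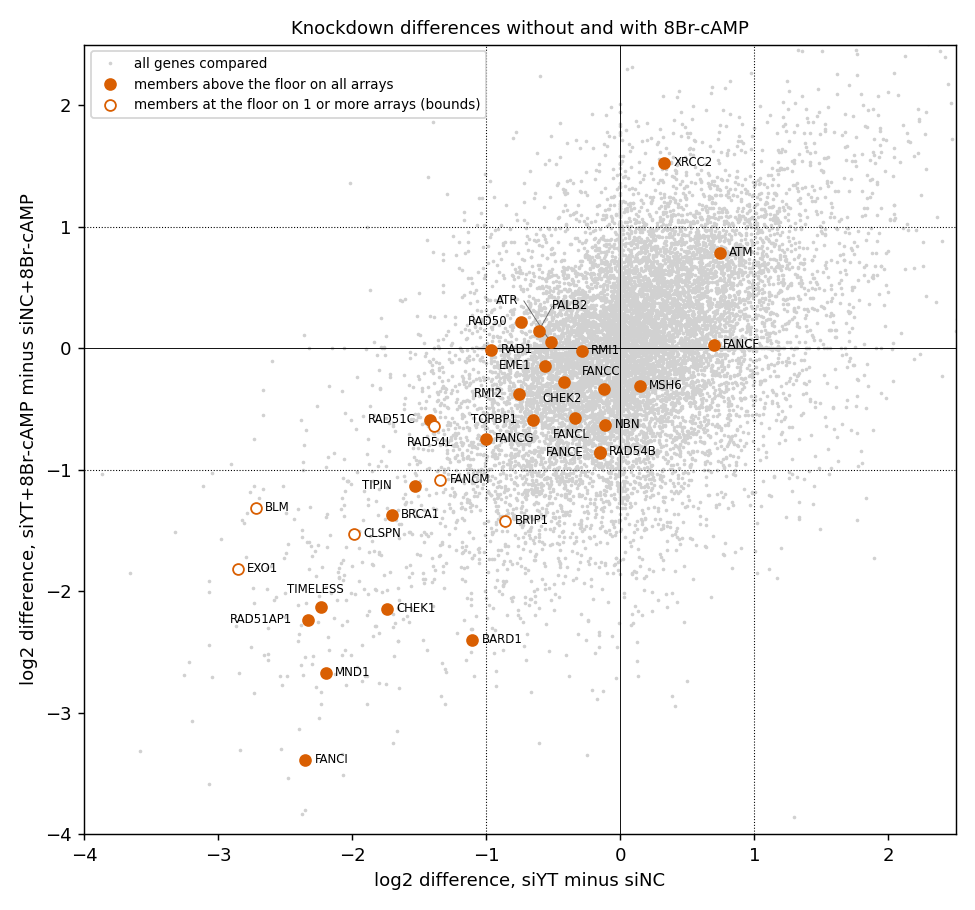
Log2 knockdown difference of each gene without 8Br-cAMP (horizontal axis, siYT minus siNC) and with it (vertical axis, siYT+8Br-cAMP minus siNC+8Br-cAMP), over grey points for the 14427 genes compared, without those beyond the axes; open circles are at the floor on at least 1 array and dotted lines mark 2-fold. The lower left corner past both lines holds 12 of the 34 genes, among them FANCM at -1.35 and -1.08, nearest the corner, and FANCI at -2.35 and -3.39.

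Among the Fanconi genes, FANCI and FANCM were lower at 2-fold in both comparisons. FANCI, which clamps onto DNA with FANCD2, read 269 in siYT against 1374 in siNC and 76.5 in siYT+8Br-cAMP against 799 in siNC+8Br-cAMP. It was 5.11-fold lower without 8Br-cAMP and 10.4-fold lower with it, and the additive limma effect was -2.87 ± 0.34 (SE, adjusted p = 0.0373). For the core complex that acts on it, with its anchor, the median difference over the 6 genes above the floor was -0.25 without 8Br-cAMP and -0.66 with it. FANCM, the translocase that anchors the core complex to DNA, was below the floor on both knockdown arrays, against 159 in siNC and 133 in siNC+8Br-cAMP, at least 2.54-fold and 2.12-fold lower.

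FANCG, a scaffold subunit, read 254 in siYT against 511 in siNC, just past 2-fold at 2.01-fold lower, and 270 in siYT+8Br-cAMP against 451 in siNC+8Br-cAMP, 1.67-fold lower. FANCL, the ubiquitin ligase of the complex, differed by -0.34 and -0.57, and FANCC by -0.12 and -0.33. FANCE, which contacts FANCD2, read 291 in siYT against 323 in siNC and 168 in siYT+8Br-cAMP against 305 in siNC+8Br-cAMP, differences of -0.15 and -0.86. FANCF, an adaptor subunit, gave 0.70 without 8Br-cAMP and 0.02 with it by the probe set used here. Its other probe set, above the floor on all arrays too, gave -0.69 and 1.10, so no direction can be read for FANCF. None of these 5 subunits reached 2-fold in both comparisons.

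Resection and dissolution held the genes with the largest differences without 8Br-cAMP among the 34. EXO1, a nuclease that lengthens resected ends, read 74.0 in siYT against 535 in siNC, and 21.3 in siYT+8Br-cAMP, below the floor, against 220 in siNC+8Br-cAMP. It was 7.23-fold lower without 8Br-cAMP and at least 3.52-fold lower with it, and the additive limma effect was -2.33 ± 0.34 (SE, adjusted p = 0.0413). BLM, the helicase that undoes joint molecules, read 66.03 in siYT, close to the floor, against 436 in siNC, and 54.7 in siYT+8Br-cAMP, below it, against 156 in siNC+8Br-cAMP. That is 6.60-fold and at least 2.49-fold lower. Its partners in the same complex differed less, RMI1 by -0.29 and -0.02 and RMI2 by -0.75 and -0.37.

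EME1, which cuts joint molecules together with MUS81, differed by -0.56 and -0.14. RAD50 and NBN, which with MRE11 sense and trim broken ends, did not reach 2-fold in either comparison. RAD50 read 1647 in siYT against 2752 in siNC and 2563 in siYT+8Br-cAMP against 2202 in siNC+8Br-cAMP, differences of -0.74 and 0.22, but its other probe sets gave 0.03 and 0.28, and 1.09 and -0.34, so no pattern can be read for RAD50. NBN differed by -0.11 and -0.63 by the probe set used here. Its other probe sets above the floor on all arrays gave -0.36, -0.78 and -0.13 without 8Br-cAMP. With it they gave -0.40, 0.24 and 0.38, so no direction can be read for NBN with 8Br-cAMP. MSH6, the mismatch recognition subunit whose promoter is shown above, read 2414 in siYT against 2183 in siNC and 2609 in siYT+8Br-cAMP against 3228 in siNC+8Br-cAMP, differences of 0.14 and -0.31.

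In the checkpoint, CHEK1 and 3 of the 5 mediators and fork protection genes were lower at 2-fold in both comparisons. TOPBP1 and RAD1, the other mediators, and the kinases ATR, ATM and CHEK2 were not. CHEK1, the effector kinase that restrains CDK activity when forks stall, read 184 in siYT against 614 in siNC and 90.9 in siYT+8Br-cAMP against 403 in siNC+8Br-cAMP. It was 3.34-fold lower without 8Br-cAMP and 4.43-fold lower with it, and the limma effect was -1.94 ± 0.28 (SE, adjusted p = 0.0412). CLSPN, the mediator that brings CHEK1 to ATR, was below the floor on both knockdown arrays, against 249 in siNC and 181 in siNC+8Br-cAMP, at least 3.97-fold and 2.88-fold lower. TIMELESS and TIPIN, which form the fork protection complex, were both lower at 2-fold, to different extents. TIMELESS read 177 in siYT against 831 in siNC and 135 in siYT+8Br-cAMP against 592 in siNC+8Br-cAMP, 4.69-fold and 4.37-fold lower. TIPIN read 264 in siYT against 762 in siNC and 185 in siYT+8Br-cAMP against 405 in siNC+8Br-cAMP, 2.89-fold and 2.19-fold lower.

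ATR, the kinase upstream of CHEK1, differed by -0.52 without and 0.05 with 8Br-cAMP, and TOPBP1, its activator, by -0.65 and -0.59. RAD1, a subunit of the checkpoint clamp, differed by -0.96, just short of 2-fold, and by -0.01 by the probe set used here. Its other probe sets, above the floor on all arrays, gave -0.64, -1.64, -1.02 and -0.29 without 8Br-cAMP. With it they gave -0.34, -0.33, 0.87 and 2.03, so no direction can be read for RAD1 with 8Br-cAMP. CHEK2, the effector of ATM, differed by -0.42 and -0.28. ATM itself read 1102 in siYT against 659 in siNC and 1547 in siYT+8Br-cAMP against 897 in siNC+8Br-cAMP, so both knockdown arrays were above both control arrays, by 0.74 and 0.79 on the log2 scale. The additive limma fit gave ATM 0.76 ± 0.26 (SE) with an adjusted p of 0.194.

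Several genes were read by more than 1 probe set, which gives a second view of the same RNA. Of the 34 genes, 16 had at least 2 probe sets above the floor on some array. All such probe sets of a gene were negative for 8 of the 16 in each knockdown comparison. They were all positive for 1 gene without and 2 genes with 8Br-cAMP. The share over all genes was not taken, so this count has no background to be read against. The 3 FANCI probe sets gave -2.35, -2.94 and -1.47 without 8Br-cAMP and -3.39, -2.91 and -1.33 with it. The value of -2.91 is a bound, since that probe set was below the floor in siYT+8Br-cAMP. For CHEK1, 3 probe sets gave -1.74, -1.34 and -1.32 without and -2.15, -2.09 and -1.41 with 8Br-cAMP, while the fourth, at or near the floor, gave 0.44 and -0.32. BARD1 was -1.10 and -1.09 by its brighter probe sets without 8Br-cAMP, and -2.40 and -1.05 with it. The higher ATM reading rests on 1 probe set: the next brightest gave -0.14 and -0.05, and another -0.26 and -0.30. RAD50 ranged from -0.74 to 1.09 without 8Br-cAMP, and RAD1 from -0.34 to 2.03 with it. The other TIMELESS probe set lay at or near the floor on all arrays (0.00 and 0.11).

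**Figure D3:**
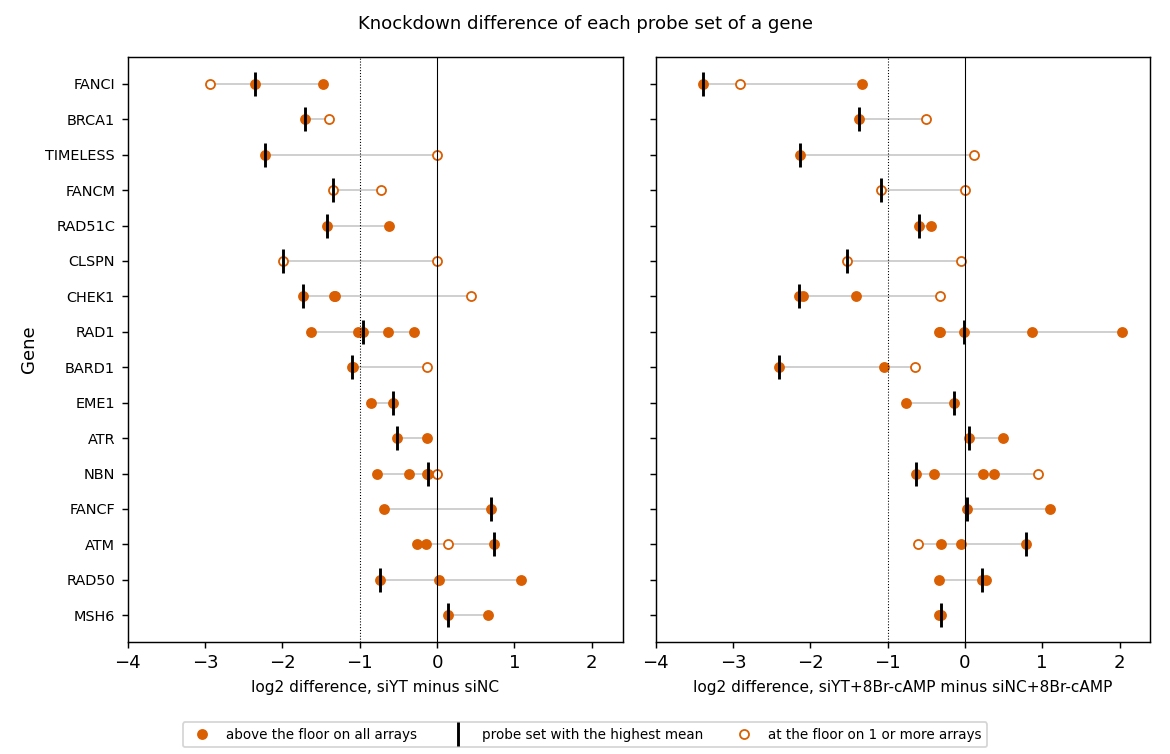
Log2 knockdown difference of every probe set above the floor on some array, for the 16 genes with at least 2 of them, without 8Br-cAMP on the left and with it on the right; black bars mark the probe set used elsewhere and open circles those at the floor on at least 1 array. The 3 FANCI probe sets lie between -3.39 and -1.33, while those of ATM lie on both sides of 0.

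The comparisons with 8Br-cAMP asked what cyclic AMP does to the same genes, with control siRNA and after knockdown. With control siRNA, 4 of the 34 were at least 2-fold lower (BRCA1, BRIP1, BLM and EXO1; 5.22% of all genes) and 0 higher (4.34%). After knockdown 6 were lower (BRCA1, BARD1, BRIP1, FANCI, CHEK1 and MND1; 9.88% of all genes) and XRCC2 was higher (5.00%). BRCA1 and BRIP1 were lower in both (2.08% of all genes) and 0 were higher in both (1.46%). The medians over the 34 were -0.47 and -0.23, against 0.00 over all genes, and 21 were lower by any amount in both (28.8%). The additive limma fit called 0 of the 34 for 8Br-cAMP in either direction after Benjamini-Hochberg adjustment (0.0277% of all genes lower, 0.111% higher), with 8 below 0 (9.35%) and 0 above (6.27%) at an unadjusted p of 0.05. MSH6, CHEK2 and ATM were higher by any amount in both (26.7%).

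BRCA1 read 194 in siNC+8Br-cAMP against 604 in siNC and 74.9 in siYT+8Br-cAMP against 185 in siYT, 3.11-fold and 2.47-fold lower. BRIP1 read 167 in siNC+8Br-cAMP against 432 in siNC, 2.58-fold lower, and after knockdown was at the floor with 8Br-cAMP against 238 without it, at least 3.81-fold lower. These helicase and ligase partners thus had their lowest readings where knockdown and 8Br-cAMP coincided. BLM and EXO1 were 2.79-fold and 2.43-fold lower with control siRNA. After knockdown without 8Br-cAMP they read within 1.5-fold of the floor, which bounds any further difference. After knockdown BARD1, FANCI, MND1 and CHEK1 were 4.25-fold, 3.52-fold, 2.29-fold and 2.02-fold lower with 8Br-cAMP. TIMELESS, TIPIN and RAD51C were 1.31-fold, 1.42-fold and 1.09-fold lower. The next brightest BARD1 probe set gave a log2 difference of -0.30 after knockdown, and the other FANCI probe sets gave -1.06, a bound, and -0.52. The other RAD51C probe set was higher with 8Br-cAMP, by 0.40 with control siRNA and 0.59 after knockdown. CHEK1 missed 2-fold under cyclic loess (-0.83), quantile normalization (-0.91), log2(value + 50) (-0.73) and the mean of all probe sets (-0.90). No further room was left for FANCM, CLSPN and RAD54L, which were below the floor in both siYT and siYT+8Br-cAMP.

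**Figure D4:**
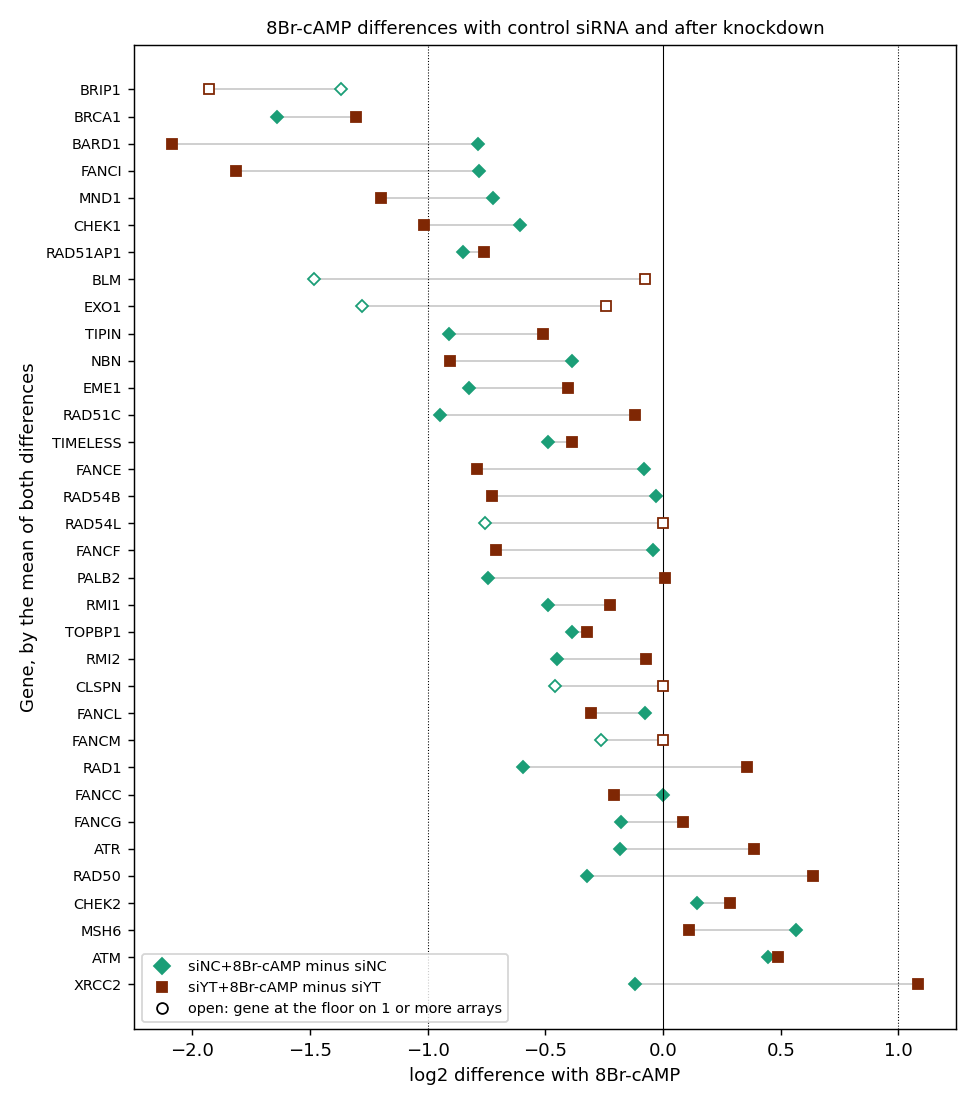
Log2 difference with 8Br-cAMP for the 34 genes, as green diamonds with control siRNA (siNC+8Br-cAMP minus siNC) and brown squares after knockdown (siYT+8Br-cAMP minus siYT); open symbols are genes at the floor on at least 1 array. BRCA1 and BRIP1 lie past the dotted 2-fold line by both symbols, and XRCC2 passes it upward after knockdown alone.

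The difference of differences, knockdown with minus knockdown without 8Br-cAMP, had a median of 0.20 over the 34 against -0.03 over all genes, and its yardstick SD between probe sets was 0.60. At the high end were BLM (1.41), XRCC2 (1.202), EXO1 (1.04) and RAD50 (0.96). BLM and EXO1 were at the floor in siYT+8Br-cAMP, which bounds their difference with 8Br-cAMP. At the low end were BARD1 (-1.30), FANCI (-1.03), FANCE (-0.71) and RAD54B (-0.70), for which knockdown differed more with 8Br-cAMP than without. Other probe sets differed from this: those of BARD1 gave a difference of differences of 0.04 and, near the floor, -0.52. Those of FANCI gave 0.03, with siYT+8Br-cAMP at the floor, and 0.15, so the FANCI value rests on 1 of its 3 probe sets. RAD50 likewise gave 0.25 and -1.43 by its other probe sets. With 1 array a group the difference has no test beyond the size. Across the 34 genes the knockdown differences without and with 8Br-cAMP, which share no array, correlated at r = 0.78 (Spearman rho 0.77), and at r = 0.51 over all 14427 genes. Genes on 1 array share its labelling and scaling and are no replicates.

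Neighbouring lists place these values. Of 53 other recombination and Fanconi genes compared, 4 were lower at 2-fold in both knockdown comparisons and 0 higher, with medians of -0.32 and -0.38. Among them were POLQ, the polymerase of end joining by microhomology (4.29-fold and 3.69-fold lower), UBE2T, which supplies ubiquitin to FANCL (5.00-fold and 3.03-fold), and MRE11, the nuclease partner of RAD50 and NBN (2.51-fold and 2.27-fold). The 31 other checkpoint and damage signalling genes had medians of -0.48 and -0.50, and 7 passed 2-fold downward both times, including the phosphatase CDC25B (4.46-fold and 4.04-fold) and the kinase WEE1 (2.96-fold and 2.85-fold), which act on CDK1 in opposite directions.

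Other repair routes had 0 genes lower at 2-fold in both comparisons, which in lists this small is near the 2.81% of all genes. These were 14 genes of non-homologous end joining (medians -0.34 and -0.28), 19 of base excision repair (-0.21 and -0.49), 17 of nucleotide excision repair (-0.13 and -0.12) and 4 of mismatch repair (-0.22 and -0.41). Of the cell cycle lists, 10 of 28 DNA replication genes (medians -1.43 and -0.97) and 24 of 25 mitosis genes (-2.34 and -2.01) were lower in both. The 34 recombination, Fanconi and checkpoint genes therefore lay between the other repair lists and the replication list in median. The lists differ in size and level and no difference between them was tested, nor was the part that the replicating share of the cells has in the results.

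**Figure D5:**
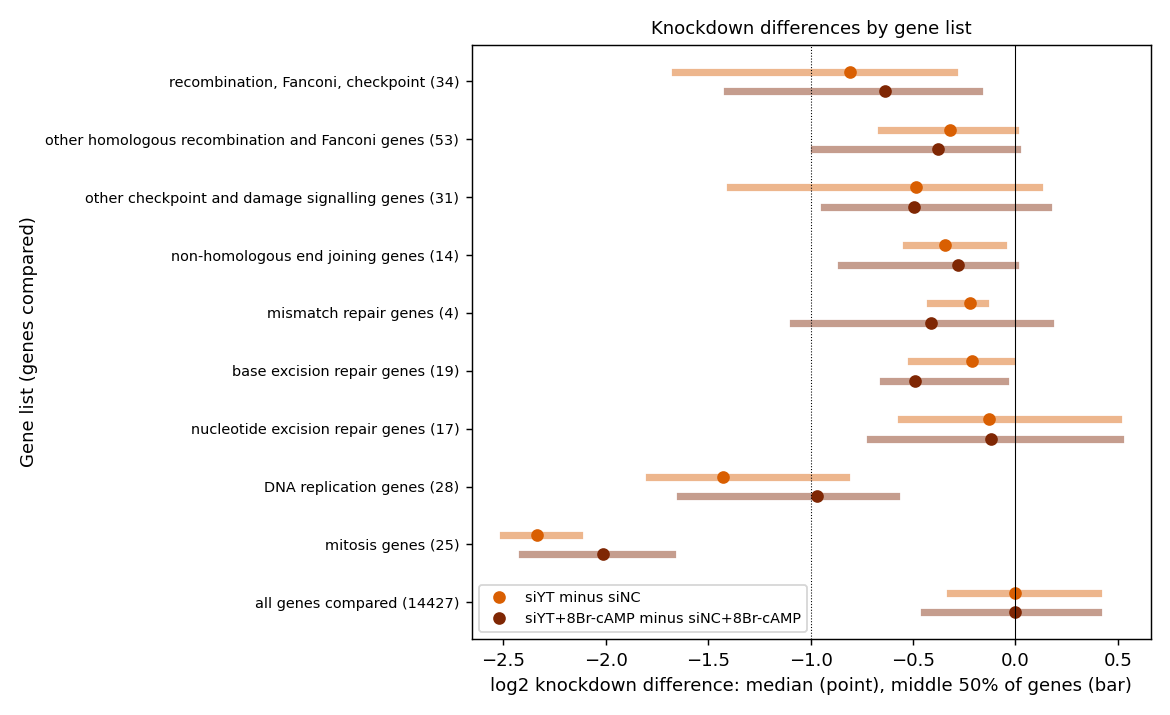
Median log2 knockdown difference (points) and the middle 50% of genes (bars) for the 34 recombination, Fanconi and checkpoint genes, 8 other lists and all 14427 genes, without 8Br-cAMP (orange, siYT minus siNC) and with it (brown, siYT+8Br-cAMP minus siNC+8Br-cAMP). The mitosis list lies lowest at -2.34 and -2.01 and the 34 genes at -0.81 and -0.64.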

How the data were processed

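Per the labels' protocols, total RNA was labelled by 3' in vitro transcription. The deposited intensity values are credited to RMA in Affymetrix Expression Console by the submitters' processing notes, without versions. They are linear, reach down to 0.0806, differ in distribution between arrays and share a 2% trimmed mean of 500.1, which RMA output does not. Background correction and summary therefore stay unknown, and low values were floored at 62.6, the median of all values, before log2 was taken. Of 54675 probe sets, 41097 had 1 gene symbol, 1801 several and 11777 none; identifiers changed 0 symbols. The 14427 genes above the floor on any array were compared. The lists, roles, motifs and genes named were chosen with earlier results of these data known. All 36 measured genes are named; of the other lists, some of the 5 with the largest mean knockdown difference. Folds that involve a floored array are bounds, written "at least". The 2-fold rule and the limma 3.58.1 fit (R 4.3.3) were tested on simulated data. Alternatives covered the floor, the probe set, normalization and the size rule.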

Additional observations from a re-analysis of the deposited data

Results flagged for a closer look

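These genes, above the floor on all 4 arrays, differed in opposite directions under the same contrast. With 1 array a group the difference was not tested. It exceeded the SD of 0.60 between probe sets for PALB2, RAD50, XRCC2 and RAD1. That SD came from probe sets above 4 times the floor on all arrays, and the XRCC2 readings lie below that level. The RAD50 values rest on 1 of 3 probe sets, since the others gave 0.25 and -1.43. Another RAD1 probe set was lower with 8Br-cAMP under both siRNAs (-0.67 and -0.37), while the rest changed sign. Knockdown without and with 8Br-cAMP gave PALB2 -0.61 and 0.14 (difference of differences 0.75), MSH6 0.14 and -0.31 (-0.45), ATR -0.52 and 0.05 (0.57) and RAD50 -0.74 and 0.22 (0.96). For 8Br-cAMP with control siRNA and after knockdown the values were -0.74 and 0.01 for PALB2, -0.18 and 0.39 for ATR and -0.32 and 0.64 for RAD50, with the same differences of differences, and -0.12 and 1.08 for XRCC2 (1.202), 0.00 and -0.21 for FANCC (-0.21), -0.18 and 0.09 for FANCG (0.26) and -0.60 and 0.36 for RAD1 (0.95).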

How the results depend on the processing

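No paired analysis was possible because each group holds 1 array. Under cyclic loess and quantile normalization all 12 genes lower in both knockdown comparisons were kept; log2(value + 50) kept 8 (without BRCA1, FANCM, BLM and TIPIN), the mean of all probe sets 7 (without BRCA1, BARD1, FANCM, CHEK1 and CLSPN) and the exclusion of shared probe sets 9 (without BRCA1, FANCM and TIMELESS). In the last, 28 genes were compared. BRCA1 has shared probe sets alone, and the remaining FANCM probe set was below the floor on every array, so neither gene was compared there. TIMELESS with 8Br-cAMP became 0.11, since its remaining probe set is near the floor. For BRCA1, FANCM and CLSPN the mean of all probe sets takes in probe sets at the floor on both knockdown arrays. BARD1 (-0.77) and CHEK1 fell short of 2-fold without 8Br-cAMP, where none of their siYT readings was at the floor. There the faintest BARD1 probe set gave -0.13 and the faintest CHEK1 probe set 0.44, unlike their brighter ones. A floor at 388.7 left 27 genes, above most knockdown readings, with 4 lower without 8Br-cAMP, 1 with it and 1 in both, 0 lower or higher with 8Br-cAMP under either siRNA, 0 higher after knockdown with 8Br-cAMP, and a median of -0.053 for knockdown with 8Br-cAMP. The mean of all probe sets gave 7 lower in both and 2 lower with 8Br-cAMP after knockdown. The additive limma fit called 7 with a knockdown effect below 0, which pools both comparisons and does not require each to be lower. A 1.5-fold rule gave 20 lower and 2 higher for knockdown with 8Br-cAMP, 2 higher without it and 1 higher in both. For 8Br-cAMP it gave 15 lower with control siRNA, and 11 lower and 2 higher after knockdown. The share of all genes was not taken at 1.5-fold, so these counts have no background to be read against. Without a floor, over 36 genes, 1 was higher for knockdown without 8Br-cAMP, 2 with it and 1 for 8Br-cAMP with control siRNA. Without shared probe sets, where XRCC2 had no probe set left, 0 were higher for knockdown with 8Br-cAMP or for 8Br-cAMP after knockdown. With log2(value + 50) 0 were higher for 8Br-cAMP after knockdown. Signal near background limits the 6 genes at the floor on some array.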

Other observations

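Of 17 E2F and DREAM factors, which govern many cell cycle promoters, 4 were lower at 2-fold in both knockdown comparisons (2.81% of all genes). Upward, 0 passed both (2.38%), and the medians of the 17 were -0.64 and -1.13. E2F8, a repressor of the replication programme, read 142 in siYT against 587 in siNC and 81.0 in siYT+8Br-cAMP against 340 in siNC+8Br-cAMP (4.13-fold and 4.20-fold lower). FOXM1, an activator of mitotic genes, was 4.23-fold and 3.41-fold lower. E2F7, the relative of E2F8, went the other way, with 3226 in siYT against 1552 in siNC and 1138 in siYT+8Br-cAMP against 613 in siNC+8Br-cAMP (2.08-fold and 1.86-fold higher).

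Of the 12 genes lower in both knockdown comparisons, 8 of the 11 with a promoter window held CCAAT (72.7%), as did 8 of the 19 others (42.1%), close to the 42.7% of all genes compared. The TEAD word GGAATG lay in windows of FANCM, EXO1 and CHEK1 among the 11, and of 2 of the 19 others, against 15.4% of all genes compared. These counts are too small to be read as a difference. Within nucleotide excision repair, UVSSA was 2.62-fold and 2.12-fold higher after knockdown, the 1 gene of that list at 2-fold in both.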
